A study of Mus musculus with 14 samples.

Results

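Spleen Ter cells were sorted by Ter-119, a marker of the red lineage, from the spleen of tumour-bearing mice. They were set against common myeloid progenitors (CMP) from wild type bone marrow. The genes described are the 13357, of 49583 genes in the series, with a mean of at least 1 FPKM (fragments scaled to transcript length and to library depth) in either group. Compared with CMP, spleen Ter cells held far more RNA of globin, B cell and T cell genes, and far less of progenitor regulators, primary granule proteases, basophil proteases and the DNA replication machinery. Each gene's level was given by the authors as the mean of 2 samples per group, and its difference was taken as log2(spleen Ter mean + 1) minus log2(CMP mean + 1). The rule's edge passed close to genes such as Tulp2, which was inside with a spleen Ter mean of 1.00 FPKM, and Lrp4, which was outside with a CMP mean of 0.9997 FPKM.

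The series holds 14 samples in 7 groups of 2, all C57BL/6 mice, and 4 of the samples enter this comparison. The spleen Ter samples were sorted as cells with Ter-119, without CD45 and without lineage markers. The CMP samples were sorted as c-Kit positive, with low FcγR, and without CD34, lineage markers, IL-7R or Sca-1. Both groups were labelled as more than 98% pure and wild type. The kind of tumour, its stage and the age of the mice were not stated in the labels, and neither was whether a group's 2 samples are from different mice. The p-values below therefore measure the spread between samples, which may be technical. The groups differ in organ, in tumour and in sorting gate at once, and these cannot be told apart.

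In blood formation, CMP stand near the start of the myeloid tree and can give rise to granulocytes, monocytes, megakaryocytes and red cells. Their programme rests on the transcription factors C/EBPα, GATA2, MYB and PU.1 and on growth factor receptors such as KIT. Cells committed to neutrophils make primary granule proteins at the promyelocyte stage and secondary and tertiary granule proteins later. Red cell precursors marked by Ter-119 have left the progenitor stage, make globin and heme, build the membrane skeleton and then lose nucleus and organelles. In adult mice the spleen can take up red cell production under stress, beside its resident B cells, T cells and macrophages.

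The digits of the deposited means allowed both libraries of each group to be recovered. They carry no replicate number, so the deeper is named A and the other B, and paired values follow that order. Spleen Ter had depths of 15107437 and 14545383 fragments, and CMP of 14636912 and 13413530. The spleen Ter libraries were unlike each other: 22.8% of 12224 genes tested were at least 2-fold apart between them, against 1.82% between the CMP libraries. Of all 13218 genes with recovered libraries, 20.3% had spleen Ter library B at least 2-fold above A, and 4.54% had A that far above B. For 139 of the 13357 genes, among them the main globin genes, S100a9 and Elane, the libraries of one or both groups were not recovered. These 139 genes held 42.4% of the FPKM total in spleen Ter and 21.7% in CMP, so the most abundant transcripts are described by their means, with no error and no test. Because the samples are bulk RNA, a larger share of cells of a type and more RNA per cell cannot be told apart in any result below.

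The labelled identity of each group was checked against its defining markers. Adult globin genes, which mark the red lineage, had summed means of 51460 FPKM in spleen Ter and 6.28 in CMP. The T cell list, whose cells the CD45 and lineage gates should remove, summed to 1015 and 1389 FPKM over its 21 genes in spleen Ter, with no defining marker at 0, and to 13.2 and 7.09 in CMP. For the 19 recovered B cell genes the sums were 2525 and 2749 FPKM in spleen Ter and 86.9 and 62.0 in CMP. This RNA of T and B cell genes in spleen Ter did not match the gate as labelled. Red cell membrane genes had a median log2 difference from CMP of 1.69 in spleen Ter library A and -0.02 in library B. RNA of the gated antigen CD45 was not analysed here. In CMP, the labelled absence of CD34 did not match the RNA. Cd34 (ENSMUSG00000016494, mm10 chromosome 1, 194938819 to 194961279) was 29.3 and 30.1 FPKM in CMP. Its mean was 0.0694 in the group labelled as megakaryocyte-erythroid progenitors and as CD34 positive. That group had means of 84794 FPKM for the neutrophil gene S100a9 and 0.928 for the red cell factor Gata1, so its name is used as a label only. The names CMP and spleen Ter are kept below for the groups so labelled.

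The promoters of 7 genes with wide gaps are shown here because these genes differed in opposite directions: the primary granule genes Mpo, Elane, Prtn3 and Ctsg and the basophil protease gene Prss34 stood high in CMP, and the heme enzyme gene Alas2 and the beta-globin gene Hbb-bs stood high in spleen Ter. Each run is 300 bases from RefSeq (GRCm38.p6), from 250 bases before the start of transcription to 50 after it, on the gene's own strand. Capitals mark matches, on either strand, to AGATAA (known for GATA factors), CCACACCC (for KLF factors), GAGGAAG (for ETS factors such as PU.1) and TTGCNNAA (for C/EBP factors). They lie at chr11:87793534-87793833 on the plus strand (Mpo), chr10:79886062-79886361 plus (Elane), chr10:79879417-79879716 plus (Prtn3), chr14:56102525-56102824 minus (Ctsg), chr17:25298144-25298443 plus (Prss34), chrX:150547167-150547466 plus (Alas2) and chr7:103827879-103828178 minus (Hbb-bs).
Mpo: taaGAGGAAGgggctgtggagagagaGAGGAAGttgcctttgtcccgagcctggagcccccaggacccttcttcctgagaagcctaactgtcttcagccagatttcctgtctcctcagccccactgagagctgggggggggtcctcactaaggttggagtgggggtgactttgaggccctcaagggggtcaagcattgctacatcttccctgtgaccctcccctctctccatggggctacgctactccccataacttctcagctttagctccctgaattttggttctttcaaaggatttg
Elane: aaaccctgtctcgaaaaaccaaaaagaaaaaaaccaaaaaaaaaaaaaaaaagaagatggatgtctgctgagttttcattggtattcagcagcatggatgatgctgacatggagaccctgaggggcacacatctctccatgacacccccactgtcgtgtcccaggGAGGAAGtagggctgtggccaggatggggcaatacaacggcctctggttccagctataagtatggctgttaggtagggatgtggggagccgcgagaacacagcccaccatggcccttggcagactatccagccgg
Prtn3: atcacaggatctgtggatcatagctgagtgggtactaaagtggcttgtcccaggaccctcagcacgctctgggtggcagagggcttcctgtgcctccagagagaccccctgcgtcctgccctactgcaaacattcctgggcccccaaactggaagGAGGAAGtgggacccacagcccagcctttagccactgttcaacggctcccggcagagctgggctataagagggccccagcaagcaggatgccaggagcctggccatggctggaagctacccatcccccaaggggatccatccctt
Ctsg: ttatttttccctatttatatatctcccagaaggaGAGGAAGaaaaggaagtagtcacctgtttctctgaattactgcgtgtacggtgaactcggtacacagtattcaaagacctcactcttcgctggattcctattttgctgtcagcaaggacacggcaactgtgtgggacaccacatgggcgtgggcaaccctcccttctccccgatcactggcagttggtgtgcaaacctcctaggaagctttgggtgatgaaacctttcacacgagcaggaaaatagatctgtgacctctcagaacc
Prss34: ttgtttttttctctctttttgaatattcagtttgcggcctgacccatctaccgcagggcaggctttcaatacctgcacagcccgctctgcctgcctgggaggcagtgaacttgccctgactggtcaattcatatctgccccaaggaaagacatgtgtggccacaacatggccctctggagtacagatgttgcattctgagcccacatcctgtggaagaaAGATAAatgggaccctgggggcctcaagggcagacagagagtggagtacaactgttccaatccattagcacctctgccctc
Alas2: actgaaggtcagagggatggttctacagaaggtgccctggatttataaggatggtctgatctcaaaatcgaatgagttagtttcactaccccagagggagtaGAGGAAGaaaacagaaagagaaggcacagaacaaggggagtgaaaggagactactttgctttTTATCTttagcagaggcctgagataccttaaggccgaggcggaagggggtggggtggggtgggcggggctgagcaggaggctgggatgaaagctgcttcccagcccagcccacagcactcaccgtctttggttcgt
Hbb-bs: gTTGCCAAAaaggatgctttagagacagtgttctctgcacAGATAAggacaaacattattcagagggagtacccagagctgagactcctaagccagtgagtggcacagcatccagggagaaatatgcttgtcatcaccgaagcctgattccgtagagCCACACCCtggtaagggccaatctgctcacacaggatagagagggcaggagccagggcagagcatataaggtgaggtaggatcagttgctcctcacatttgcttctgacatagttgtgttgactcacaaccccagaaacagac
GAGGAAG was found in all 4 granule promoters shown, with the last base of the match 240 and 217 bases before the start in Mpo, 78 in Elane, 88 in Prtn3 and 209 in Ctsg. It is in 13.6% of all 32851 promoters in the table, in 4 of 9 late granule promoters (Itgb2l, Lcn2, Ly6g and Mmp8), whose genes had higher means in spleen Ter but did not pass, and in 3 of 10 heme synthesis promoters, that of Alas2 among them. Of the 9 genes of the primary granule list 6 had a promoter in the table, and the other two of those 6 lacked it. AGATAA was found in Alas2, Hbb-bs and Prss34 and in none of the 6 primary granule promoters, against 11.2% of all promoters. It was in 1 of 6 adult globin, 2 of 10 heme synthesis, 4 of 14 red cell membrane and 2 of 9 late granule promoters. Of 7 promoters of the mast cell and basophil list, 4 held it (Cpa3, Fcer1a, Ms4a2 and Prss34). CCACACCC, in 3.56% of all promoters, was found in Hbb-bs, 85 bases before its start. The other motifs searched were TGTGGT (RUNX; 16.8% of promoters), AACGG (MYB; 17.4%) and its looser form AACNG (80.3%), TTNCNNAA (40.7%), of which TTGCNNAA (10.8%) is a stricter form, and CACGTG (an E-box; 7.15%). AACGG was in Elane and Prtn3. Among the 7 promoters shown, TTGCNNAA was found in Hbb-bs only. It was in 5 of 9 late granule promoters (Lcn2, Ltf, Ly6g, Mmp8 and Ngp) and 2 of 6 primary granule promoters (Gfi1 and Ms4a3). It was also in 1 of 6 adult globin, 0 of 10 heme synthesis, 1 of 14 red cell membrane and 1 of 7 mast cell and basophil promoters. A match is a description of the letters in this window and no measure of binding.

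Across all genes, differences between spleen Ter and CMP were wide and leaned towards lower levels in spleen Ter. Going by the deposited means, spleen Ter exceeded CMP at least 2-fold for 2502 of 13357 genes (18.7%) and fell short by as much for 3751 (28.1%). The median log2 difference was -0.34. The libraries were tested with limma on log2(FPKM + 1), and a gene was called at a Benjamini-Hochberg adjusted p under 0.05 and a difference of at least 2-fold. Of 12224 genes tested, 1603 were called higher in spleen Ter, which is 13.1%, and 3184 lower, which is 26.0%, or 39.2% in either direction. These percentages are the background for every count below, with a limit. A gene needed 1 FPKM in 2 libraries to be tested, which the pair of 1 group could meet alone. Such a gene, near 0 in the other group, could hardly be called in the opposite direction. This holds for many B cell, T cell and NK genes and for some platelet genes, so their shares called higher are not comparable with the background. The lean depends on scaling: 33.5% of calls were higher in spleen Ter on the FPKM scale, 49.4% after median-of-ratios scaling, 45.4% after quantile normalization and 40.5% when globin genes were left out of the totals. Those scalings raised the median log2 difference of all genes, -0.45 in the fit, by 0.36, 0.30 and 0.16. Fits that left out 1 library took their residual spread from the other group's pair alone. The median log2 difference of all genes was -0.44 without CMP library A and -0.47 without CMP library B. It was -0.19 without spleen Ter library A and -0.70 without spleen Ter library B. Counts called in such fits, where given below, depend on which pair set the spread. They do not show by themselves that a call rests on the library left out.

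**Figure D1:**
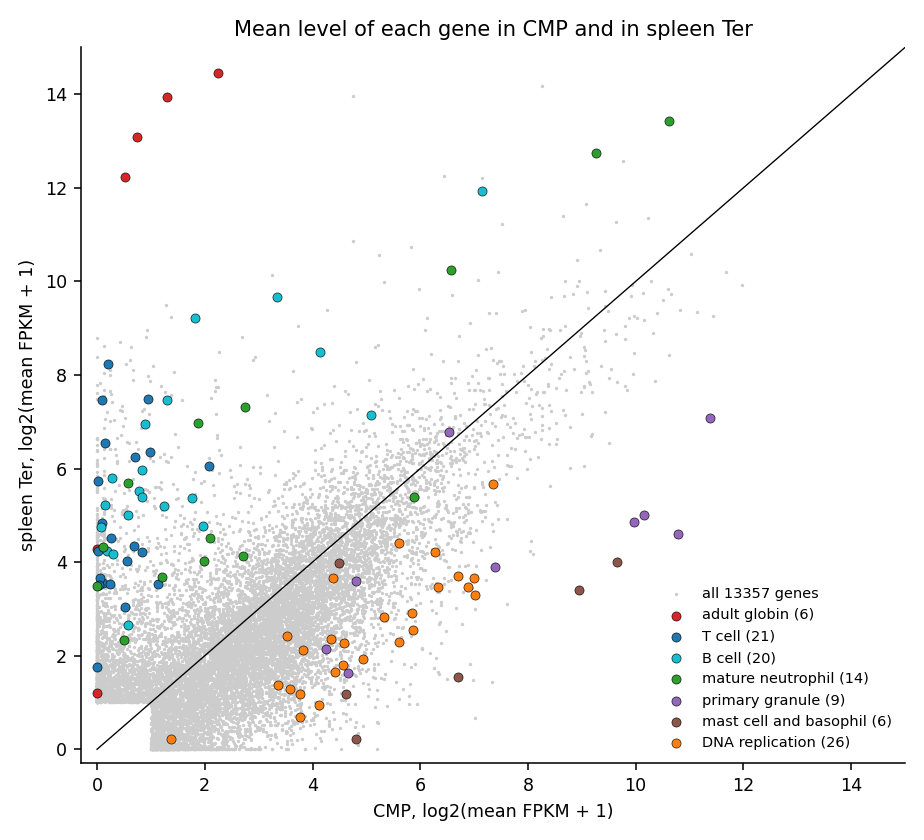
Mean level of each of the 13357 genes in CMP (horizontal axis) and spleen Ter (vertical axis), both as log2(mean FPKM + 1); each point is a gene, coloured points are members of the named lists (number of genes in brackets), and the line marks equal levels. The 4 main adult globin genes stand at the upper left, T and B cell genes along the left edge, and DNA replication, primary granule and basophil genes below the line.

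Most genes that define myeloid progenitors were lower in spleen Ter. Of 16 genes for progenitor factors and receptors, all tested, 13 were called lower and none higher, with a median difference of means of -2.08. Cebpa (ENSMUSG00000034957, chromosome 7, 35119293 to 35121928), which encodes the master factor of the granulocyte and monocyte branch, was 0.728 and 1.17 FPKM in spleen Ter and 67.7 and 53.3 in CMP. Its log2 difference was -4.98 ± 0.31 (SE, n = 2 libraries per group, limma adjusted p = 0.00247). Gata2, which keeps stem and progenitor cells from maturing, was 0.540 and 0 FPKM against 32.9 and 22.3, where 3 fragments in spleen Ter library B would have given 0.0382. Myb, needed for progenitor proliferation, was 1.68 and 1.74 against 47.9 and 43.9. For each of these 3 factors the spleen Ter libraries lay far below both CMP libraries and did not overlap them.

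The receptors by which progenitors sense growth factors were low as well. Kit, the stem cell factor receptor and part of the CMP gate, was 0.490 and 2.91 FPKM in spleen Ter and 22.92 and 22.97 in CMP (log2 difference -3.31 ± 0.52, limma adjusted p = 0.0083). Il3ra, the alpha chain of the IL-3 receptor, differed by -2.99 ± 0.42 (limma adjusted p = 0.00647). Csf2ra, the GM-CSF receptor chain, was 26.0 and 31.9 against 106 and 122 FPKM, a smaller gap of -1.95 ± 0.24. Flt3, the receptor of FLT3 ligand, was 2.35 and 3.61 against 15.7 and 16.3. The group was not uniform: 3 of its members did not pass, among them Spi1 and Cd48. Spi1, which encodes PU.1, was 59.5 and 69.5 FPKM against 83.9 and 72.6, and Cd48, a leukocyte surface protein, was 69.4 and 95.4 against 96.5 and 99.3. Spi1 and Cd48 thus kept at least 59.5 FPKM in both spleen Ter libraries. With either CMP library left out, 7 of the 16 genes were called lower. Ly6a, which encodes Sca-1 and was gated out of CMP, stood at the other end, with 150 and 245 FPKM in spleen Ter against 1.70 and 1.11 (6.33 ± 0.35, limma adjusted p = 0.00247).

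Granule genes of neutrophils split by stage. Primary granule genes were lower in spleen Ter, while later granule and mature neutrophil genes had higher means. Of 9 primary granule genes, 8 had means at least 2-fold lower in spleen Ter, and of the 6 that could be tested 4 were called lower (median difference of means over the 9, -3.49). Mpo (ENSMUSG00000009350), myeloperoxidase, had a mean of 1753 FPKM in CMP, and was 40.4 and 6.08 FPKM in the spleen Ter libraries. Elane, neutrophil elastase, had means of 134 in spleen Ter and 2673 in CMP, and Prtn3, proteinase 3, had means of 31.3 and 1131. The serine protease gene Ctsg, cathepsin G, was 53.4 and 2.68 FPKM in spleen Ter against 905 and 1096 (-6.14 ± 1.22, limma adjusted p = 0.0155). In Mpo, Prtn3 and Ctsg spleen Ter library A lay well above library B, yet both stayed far below CMP. Ms4a3, a marker of the granulocyte-monocyte branch, was 27.4 and 0.401 against 160 and 172. Gfi1, a repressor that guides neutrophil fate, was 2.12 and 4.72 against 20.5 and 15.7. The 2 that did not pass were Cebpe, a factor of late neutrophil maturation, with 19.68 and 2.388 FPKM against 32.5 and 21.26 (-1.71 ± 0.87, limma adjusted p = 0.172), and Serpinb1a, an inhibitor of granule proteases, with 143 and 75.9 against 92.8 and 90.0 (0.19 ± 0.34). None of the 6 was called without CMP library A or without CMP library B.

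Secondary and tertiary granule genes ran the other way by their means. Of 10 such genes, 9 had means at least 2-fold higher in spleen Ter (median 2.31), but none of the 7 tested was called, and 2 were called higher without CMP library A. Ltf, lactoferrin, shows the spread: it was 577 and 54.1 FPKM in spleen Ter and 148 and 22.1 in CMP, so the groups overlapped. Lcn2, which binds bacterial siderophores, was 896 and 105 against 113 and 20.8. Ly6g, a surface antigen of mature mouse neutrophils, was 102 and 16.3 against 13.1 and 1.19. CMP library A was at least 2-fold above CMP library B in all 7 recovered genes of this list, a gap seen in 1.28% of all genes recovered. The abundant members Camp, Ngp and Chil3 had spleen Ter means of 2401, 2688 and 1170 FPKM and CMP means of 182, 399.6 and 173.

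Of 12 mature neutrophil genes tested, 7 were called higher and none lower, and over all 14 the median difference of means was 3.14. The alarmin genes S100a8 and S100a9, whose products form calprotectin, had means of 6828 and 10967 FPKM in spleen Ter and 617 and 1561 in CMP. S100a9 was 2532 in CMP library A and 590 in library B. Retnlg, a resistin-like gene of neutrophils, was 1269 and 1155 in spleen Ter against 178 and 8.58 (4.87 ± 1.32, limma adjusted p = 0.0359). Spleen Ter was even in this gene, and the spread came from CMP. The stefin genes Stfa1 and Stfa2l1, inhibitors of cysteine proteases, were 49.4 and 51.8 against 0.981 and 0, and 133 and 115 against 4.95 and 0.360. The stefin A genes are near-identical copies, so reads may have been shared among them. Csf3r, the G-CSF receptor, did not pass, with 34.0 and 47.9 FPKM against 71.3 and 45.4. The count called higher was 4 of the 12 without CMP library A, without CMP library B or without spleen Ter library A.

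Basophil and mast cell genes were the lists' lowest in spleen Ter, with a median difference of means of -4.01 over 8 genes, and 5 of 6 tested were called lower. Prss34 (ENSMUSG00000056399, chromosome 17, 25298394 to 25300165) encodes a basophil protease and stood at 29.9 and 0.0565 FPKM in spleen Ter, the latter from 1 fragment, and at 922 and 680 in CMP (-7.12 ± 1.53, limma adjusted p = 0.0187). Mcpt8, another basophil protease, was 17.9 and 1.37 against 579 and 411. The carboxypeptidase gene Cpa3 was 3.80 and 0.0453 against 120 and 85.7. Spleen Ter library A held more of all 3 than library B, and both were far under CMP. Fcer1a and Ms4a2, subunits of the high-affinity IgE receptor, were 2.52 and 0, and 0.329 and 0, against 19.1 to 28.1 and 22.6 to 31.3 FPKM. Only Hdc, which makes histamine, did not pass among the 6, at 18.5 and 11.2 against 23.6 and 19.3. Leaving out CMP library A or B left 3 of the 6 called.

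Eosinophil genes went both ways. Of 9 tested, 5 were called lower and 2 higher in spleen Ter (median -1.83). Epx, eosinophil peroxidase, was 1.499 and 0 FPKM against 24.04 and 15.8, and Siglecf, a surface lectin of eosinophils, was 0.475 and 0.197 against 7.22 and 6.36. Ear2, an eosinophil-associated ribonuclease, was higher, with 24.4 and 46.9 against 7.70 and 4.77 (2.30 ± 0.43, limma adjusted p = 0.0127). Il5ra, the IL-5 receptor, was 1.54 and 4.31 against 0.191 and 0.229 and was the other gene called higher. The Ear genes form a family of similar sequences, and reads may be split among them. With median-of-ratios scaling 2 genes were called lower and 3 higher. No gene was called higher with a CMP library left out, and 1 was called lower without A and 3 without B.

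Most genes of cell division were lower in spleen Ter. For DNA replication 25 of 26 genes tested were called lower and none higher, with a median difference of means of -2.68. The MCM helicase that unwinds DNA shows it subunit by subunit: Mcm5 was 10.99 and 6.65 FPKM in spleen Ter and 131 and 125 in CMP, Mcm3 was 9.17 and 10.99 against 122 and 112, and Mcm6 was 12.02 and 11.4 against 136 and 118. The log2 differences of Mcm2 to Mcm7 lay between -3.75 and -2.86. Cdc6, which loads the helicase, was 1.87 and 0 against 17.6 and 15.2. Rrm2, the ribonucleotide reductase subunit, was 28.3 and 6.65 against 76.21 and 77.05 and so kept more of its level in library A. Rfc4, a subunit of the clamp loader, did not pass, with 16.5 and 6.72 against 21.3 and 18.4. The median of its fitted differences was -2.71 and lay between -3.04 and -2.31 under the 11 alternatives tried. The count called was 17 with median-of-ratios scaling and 9 without either CMP library.

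Mitosis genes were lower too, with 17 of 23 called lower and none higher (median -2.10). Top2a (ENSMUSG00000020914, chromosome 11, 98992943 to 99024189), topoisomerase II, was 5.32 and 1.66 FPKM in spleen Ter and 60.6 and 68.8 in CMP (-4.0 ± 0.47, limma adjusted p = 0.00467). Mki67, the Ki-67 proliferation antigen, was 9.43 and 1.33 against 76.0 and 85.9. In spleen Ter library A 21 of the 23 genes were higher than in library B, 14 of them at least 2-fold, while 4.54% of all recovered genes were that much higher in A. Ube2c, which feeds ubiquitin to the anaphase-promoting complex, was 39.9 and 3.04 FPKM, on either side of CMP at 18.1 and 25.5. Birc5, survivin, was 16.7 and 1.31 against 18.0 and 22.2 and did not pass. Calls fell to 5 of the 23 without CMP library A and to 4 without CMP library B.

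Ribosome assembly genes followed with a smaller gap. Of 15 tested, 9 were called lower and none higher, with a median difference of means of -1.46. Npm1, nucleophosmin, was 143 and 136 FPKM in spleen Ter against 398 and 427 (-1.56 ± 0.17, limma adjusted p = 0.00431), and Ncl, nucleolin, was 39.0 and 42.5 against 113 and 116. Myc, the factor that drives this programme, did not pass: it was 82.4 and 70.1 in spleen Ter and 90.1 and 55.3 in CMP (0.11 ± 0.30, limma adjusted p = 0.803). None of the 15 was called without CMP library A or without CMP library B.

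**Figure D2:**
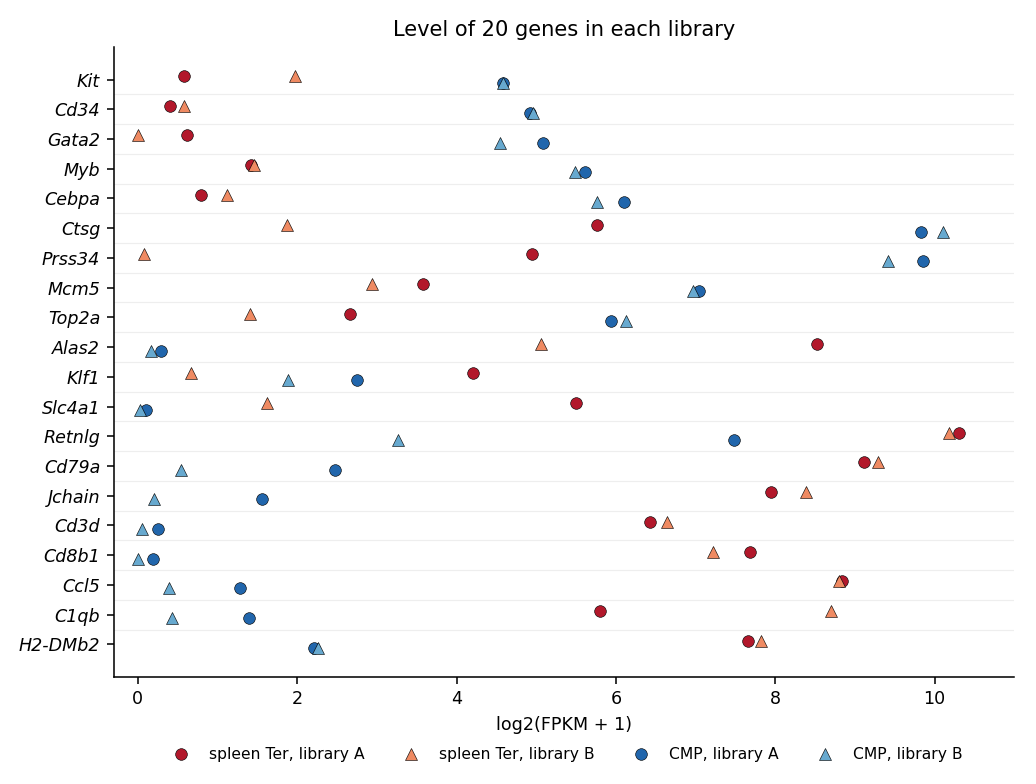
Level of 20 genes in each library, as log2(FPKM + 1) on the horizontal axis; circles are library A and triangles library B, in reds for spleen Ter and blues for CMP. Progenitor, granule and division genes have both spleen Ter libraries to the left of CMP, while Alas2, Klf1 and Slc4a1 have spleen Ter libraries several log2 units apart and the B and T cell genes have them close together.

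Globin genes had the widest gap to CMP among genes of the red lineage. Hbb-bs (ENSMUSG00000052305, chromosome 7, 103826534 to 103828096), an adult beta-globin gene, had means of 22394 FPKM in spleen Ter and 3.71 in CMP, where the libraries were 6.94 and 0.485. The alpha-globin gene Hba-a1 had means of 15625 and 1.45, and Hba-a2 of 8640 and 0.680. Hba-a1 and Hba-a2 encode the same protein and share reads, so the split between them is uncertain. Of all FPKM, globin genes took 13.7% in spleen Ter and 0.00232% in CMP. The embryonic globin genes Hbb-y, Hbb-bh1, Hbb-bh2 and Hba-x had summed means of 0.113 FPKM in spleen Ter and 0 in CMP. The spleen Ter libraries of the main globins were not recovered. The theta-like globin gene Hbq1b, which was recovered, was 37.0 in library A, 0.0948 in library B and 0 in both CMP libraries, where 3 fragments would have given 0.283 and 0.308.

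Of 12 heme synthesis genes, 2 were called higher in spleen Ter and none lower, which is close to the background of 13.1% (median difference of means 0.71). Alas2 (ENSMUSG00000025270, chromosome X, 150547375 to 150570638), the first enzyme of the pathway in red cells, was 366 and 32.3 FPKM against 0.228 and 0.124 (6.56 ± 1.11, limma adjusted p = 0.01). Alad, which makes porphobilinogen, was the other, with 30.7 and 28.1 against 14.97 and 12.47. Fech, which inserts iron into the ring, was 90.7 and 14.7 against 9.89 and 11.9, and Urod, uroporphyrinogen decarboxylase, was 43.5 and 9.05 against 13.6 and 13.0. In Fech and Urod library A stood apart, with library B near or below CMP. The median over the list was 0.97 in library A against CMP and -0.01 in library B. Each of these medians sets 1 spleen Ter library against the CMP pair, so the spread between the spleen Ter libraries does not enter it.

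Membrane and skeleton genes of the red cell showed the same split. Of 20 genes 10 could be tested, none was called higher and 1 was called lower. Slc4a1, the band 3 anion exchanger, was 44.3 and 2.07 FPKM against 0.0698 and 0.0152 (3.50 ± 1.24, limma adjusted p = 0.0736) and did not pass, although both spleen Ter libraries lay above both CMP libraries. Rhd, the Rh blood group protein, was 40.1 and 0.0431 FPKM against 1.24 and 0.327. In 15 of 19 recovered genes library A was at least 2-fold above library B. The list's median was 1.69 in library A against CMP and -0.02 in library B. For the 10 tested genes, the median was 2.04 without library B and -0.65 without library A. Aqp1, the water channel, was the gene called lower, with 3.70 and 0.183 against 18.2 and 9.42.

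The list of red lineage factors holds transcription factors and their partners, with Trim10 counted among them. Of its 15 genes tested, 4 were called lower (26.0% of all genes were) and none higher. Lyl1 was 3.97 and 7.14 FPKM against 78.9 and 83.7 (-3.69 ± 0.33, limma adjusted p = 0.00345), and Tal1, its relative and a core erythroid factor, was 1.77 and 2.01 against 10.3 and 8.07. Gata1, the central red cell factor, was 4.97 and 1.07 against 7.71 and 4.34. Klf1, which activates beta-globin, was 17.5 and 0.584 FPKM, on either side of CMP at 5.76 and 2.68. Trim10, a late erythroid gene, was 43.5 and 1.65 against 0.0304 and 0 but did not pass (limma adjusted p = 0.0871). Klf1 and Trim10 were thus both far higher in library A than in library B. Without spleen Ter library A 7 of the 15 were called lower, and 1 with either CMP library left out.

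Iron genes were mixed, with 3 of 12 tested called higher and 2 lower. The counts were 5 and 4 without spleen Ter library A, 4 and 4 without library B, and 1 and 2 with either CMP library left out. The median of the tested genes was -0.02 in the fit and 0.38, 0.28 and 0.16 under the 3 other scalings. Ftl1, ferritin light chain, was 687 and 590 FPKM in spleen Ter against 166 and 171 (1.92 ± 0.17, limma adjusted p = 0.00345), and its partner Fth1 had means of 3213 and 542. Hmox1, which breaks heme down, was 18.0 and 136 against 5.58 and 2.21, and here library B was the higher. Tfrc, the transferrin receptor CD71, was 17.8 and 5.22 against 27.7 and 28.4 and did not pass. Tfr2, the iron sensor, was 0.763 and 0.0159 against 7.63 and 5.97. Among genes for organelle clearance, Map1lc3b and Gabarapl2, which build autophagosomes, were the 2 called higher of 11 tested, and neither was called with a CMP library left out or with no filter. Without spleen Ter library A 3 of the 11 were called lower, and without library B 4 were called higher. Bnip3l, the receptor that removes mitochondria from red cells, was 113 and 39.5 against 22.98 and 23.59 and missed the threshold (limma adjusted p = 0.0697). The median of those 11 was -0.13 and turned positive under the 3 other scalings, at 0.24, 0.29 and 0.03.

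**Figure D3:**
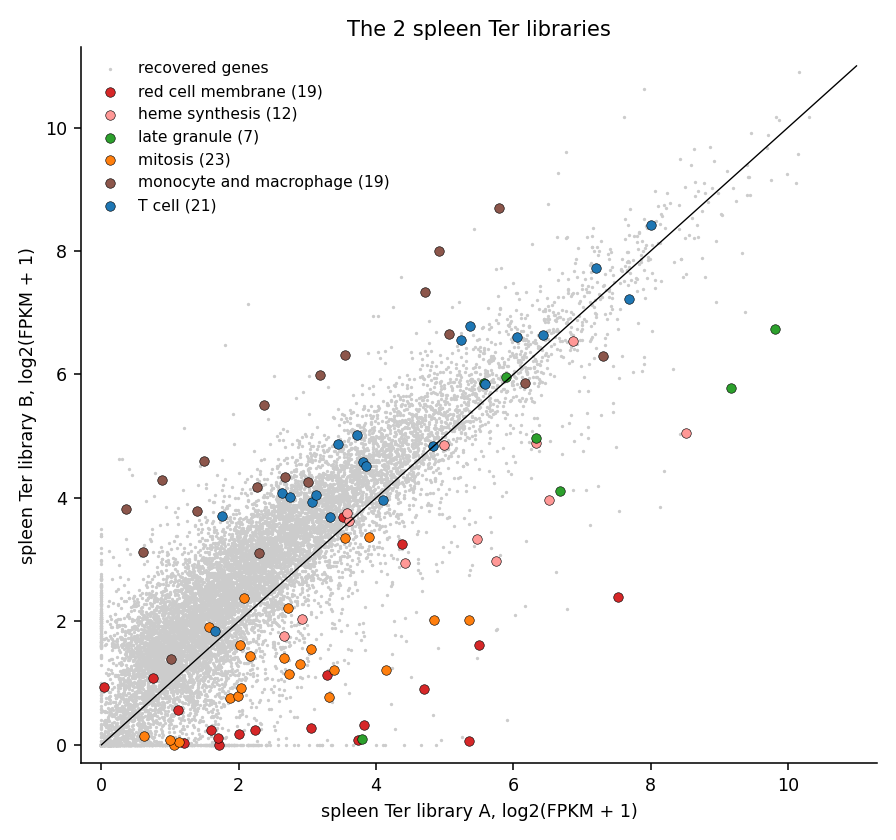
Level of each recovered gene in spleen Ter library A (horizontal axis) and library B (vertical axis), both as log2(FPKM + 1); each point is a gene, coloured points belong to the named lists, and the line marks equal levels. Red cell membrane, heme, mitosis and late granule genes lie towards library A and monocyte and macrophage genes towards library B, while T cell genes lie near the line or somewhat above it.

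Lymphocyte genes stood among the widest gaps over CMP, and here both spleen Ter libraries were high. All 19 B cell genes tested were called higher (median difference of means 4.63 over 20). Cd79a (ENSMUSG00000003379, chromosome 7, 24897381 to 24902197), the signalling chain of the B cell receptor, was 555 and 626 FPKM against 4.55 and 0.460 (7.70 ± 0.64, limma adjusted p = 0.00341). Ms4a1, which encodes CD20, was 53.2 and 55.3 against 0.398 and 0.0362. Cr2 and Fcer2a, surface receptors of mature B cells, were 20.2 and 31.9, and 15.8 and 18.1, against values of 0 to 0.420 in CMP. Genes of earlier B cell stages were not high: Rag1 and Rag2, which cut antigen receptor genes, were at 0 in both spleen Ter libraries, and Vpreb1, a surrogate light chain gene, was 0.297 and 0. Dntt, which adds bases at the joints, was lower in spleen Ter, with 0.529 and 1.49 against 8.89 and 3.61 (-1.79 ± 0.49, limma adjusted p = 0.0367).

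Of 9 plasma cell genes 7 were called higher. Jchain, the joining chain of secreted antibody, was 246 and 332 FPKM against 1.95 and 0.148, and Mzb1, a chaperone of antibody secretion, was 135 and 172 against 1.58 and 0.0824. Ighg2c was 99.5 and 616 against 7.57 and 0, and thus 6.41 ± 1.28 higher on the log2 scale with an uneven spread between libraries. Xbp1, the secretory factor of plasma cells, did not pass, with 33.0 and 72.5 against 55.6 and 51.2. CMP library A was at least 2-fold above B in 5 of the 9. Without spleen Ter library A 4 of the 9 were called, and without spleen Ter library B 3.

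All 21 T cell genes tested were called higher, with a median of 3.98. Most of them were under 1 FPKM in both CMP libraries and were tested through the spleen Ter pair alone, so a call lower was hardly possible. Cd3d (ENSMUSG00000032094, chromosome 9, 44981786 to 44987339), a chain of the T cell receptor complex, was 85.1 and 98.6 FPKM in spleen Ter and 0.188 and 0.0411 in CMP (6.38 ± 0.29, limma adjusted p = 0.0019). Trbc2, a constant gene of the receptor beta chain, was 257 and 341 against 0.198 and 0.108. Cd8b1, the CD8 coreceptor chain, was 205 and 148 against 0.138 and 0. Cd4, the helper coreceptor, was 2.36 and 12.02 against 0.661 and 0.203 and passed more narrowly (2.23 ± 0.67, limma adjusted p = 0.0485). Tcf7 and Lef1, factors of naive T cells, were 40.3 and 109, and 7.71 and 15.6, against values under 1 FPKM in CMP. In 7 of the 21 genes library B was at least 2-fold above library A, against 20.3% of all recovered genes, and in none was A that much above B. The count was 14 of the 21 without CMP library A and 13 without CMP library B.

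Genes of NK and cytotoxic cells were higher for 10 of 12 tested. Gzma, a granzyme, was 24.8 and 46.8 FPKM against 0.934 and 0, and Prf1, perforin, was 6.28 and 11.6 against 0.200 and 0.0363. Gzmb did not pass, with 14.7 and 17.7 against 9.25 and 15.1, and Nkg7, a granule membrane protein, was already 160 and 157 in CMP against 387 and 369. Without CMP library A 4 of the 12 were called, and without CMP library B 3.

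**Figure D4:**
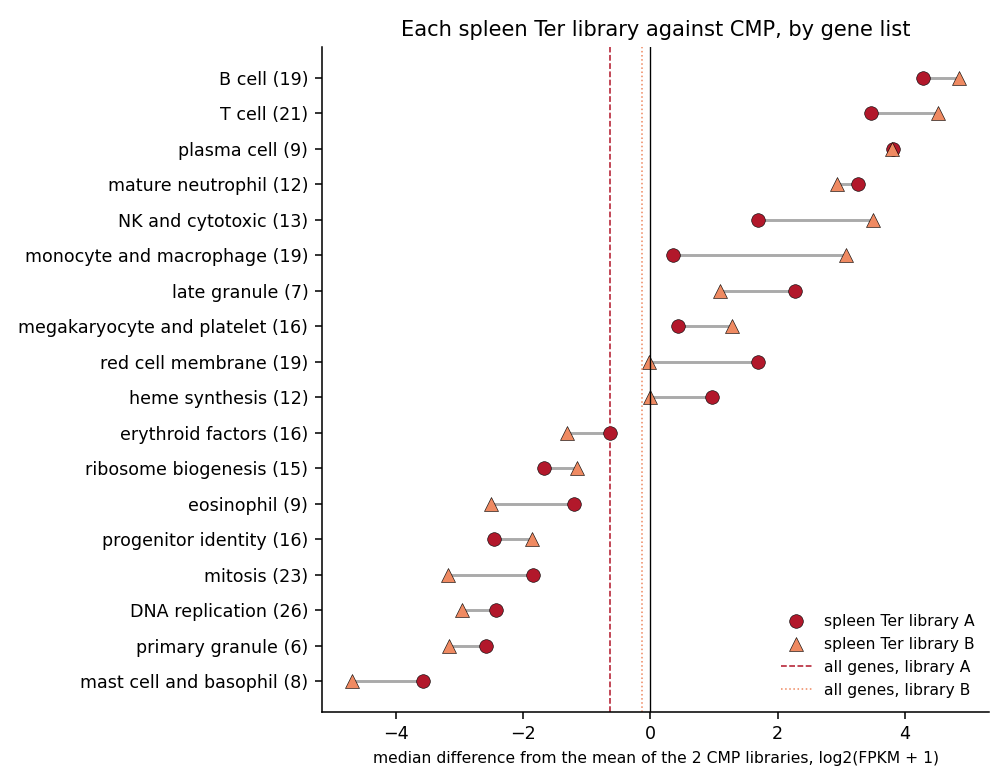
Median difference of each spleen Ter library from the mean of the 2 CMP libraries, on the log2(FPKM + 1) scale, for 18 gene lists (number of recovered genes in brackets); circles are library A, triangles library B, and the broken lines mark the median of all recovered genes in each library. B cell, T cell and plasma cell lists stand far to the right in both libraries, heme and red cell membrane lists stand to the right in library A and at 0 in library B, and the division, progenitor, primary granule and basophil lists stand to the left in both.

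Macrophage genes went both ways and stood higher in spleen Ter library B than in library A. Of 17 tested, 7 were called higher and 2 lower, and the list's median was 3.07 in library B against CMP but 0.36 in library A. In 15 of 19 recovered genes library B was at least 2-fold above library A, a gap seen in 20.3% of all recovered genes. For the 17 tested genes, the median was 2.77 without spleen Ter library A and 0.36 without library B. With CMP library A or B left out, 3 or 2 were called higher and none lower. C1qb (ENSMUSG00000036905, chromosome 4, 136880129 to 136886187), a chain of the complement component C1q, was 54.6 and 414 FPKM against 1.63 and 0.343 (6.34 ± 0.98, limma adjusted p = 0.008). Spic, the factor of the iron-recycling macrophages of the spleen, was 3.79 and 17.1 against 0.125 and 0.0582. Vcam1, an adhesion molecule of the macrophages on which red cells mature, was 4.14 and 44.5 against 3.66 and 3.03 and did not pass. The 2 genes called lower were Ly6c2, a marker of inflammatory monocytes, at 157 and 77.7 against 402 and 478, and Cx3cr1, the fractalkine receptor, at 1.01 and 1.62 against 7.84 and 6.12. Csf1r, the macrophage growth factor receptor, was 8.09 and 62.6 against 65.8 and 65.2, so that only library B came near CMP.

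Antigen presentation by MHC class II, the task of B cells, dendritic cells and macrophages, was higher in all 6 genes tested, and all 10 had means at least 2-fold higher. Cd74, the invariant chain, had means of 4860 and 86.2 FPKM, and H2-Ab1 of 1692 and 56.2. H2-DMb2, a chain of the peptide loader, was 201 and 226 against 3.64 and 3.79 (5.50 ± 0.24, limma adjusted p = 0.0019). The loader's other chains moved less, with H2-DMa at 150 and 157 against 58.5 and 55.9. H2-DMb1 and H2-DMb2 are close copies, and reads may be shared between them. Of 9 MHC class I genes tested only H2-T23 was called higher and only H2-Q4 lower, with 5 called higher under median-of-ratios scaling, 3 higher without spleen Ter library A, 3 lower without library B and none in either direction with a CMP library left out. Of the 6 class II genes, 3 were called without CMP library A and 3 without CMP library B.

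Platelet genes had 7 of 13 tested called higher. Ppbp, a platelet chemokine, was 17.1 and 24.7 FPKM in spleen Ter and 0 in both CMP libraries, where 3 fragments per library would have given 0.189 and 0.207, so it was at least 82.9-fold higher. Pf4, platelet factor 4, was 38.8 and 53.7 against 9.19 and 12.5 (1.99 ± 0.31, limma adjusted p = 0.0079). Itga2b, the integrin of platelets and their precursors, was 2.84 and 10.2 against 20.1 and 17.4 and did not pass. The platelet and megakaryocyte genes therefore did not move as a single block. Without CMP library A 2 of the 13 were called, and without CMP library B 1.

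Ter cells of tumour-bearing mice are known for secreting artemin, a ligand of the GDNF family. Artn, its gene, was not analysed here. Of the 7 other family genes with a value, 1 reached a mean of 1 FPKM. Gfra2, a co-receptor, was 0.382 and 4.29 FPKM in spleen Ter and 0.138 and 0 in CMP, and it was not tested because 1 library only reached 1 FPKM. Gfra3, the co-receptor of artemin, and Ret, the signalling receptor, had spleen Ter means of 0.0166 and 0.0755.

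Cytokine and chemokine genes differed by member. Ccl5 (ENSMUSG00000035042, chromosome 11, 83525778 to 83530518), a chemokine of T and NK cells, was 455 and 444 FPKM against 1.42 and 0.311, which was the largest difference of means among the 15 genes that the naming rule gave as higher (7.98 ± 0.36, limma adjusted p = 0.0019). Il1b, interleukin 1β, was 431 and 236 against 12.2 and 1.09, and Cxcl2, which draws neutrophils, was 492 and 143 against 8.821 and 4.002. Ifng, interferon γ, was 15.6 and 11.6 in spleen Ter and listed at 0 in both CMP libraries. Lta, lymphotoxin α, was 8.66 and 23.1 against 0 and 0, at least 53.6-fold higher against a floor of 3 fragments per CMP library. Il6 was the cytokine called lower, with 0.818 and 0.878 against 9.34 and 5.99 (-2.20 ± 0.33, limma adjusted p = 0.00752), and Tnf did not pass, with 15.6 and 13.9 against 14.3 and 16.2. Ccl3, a macrophage inflammatory protein, was 136 and 70.9 against 221 and 233 and was called lower. In all, 6 of 11 cytokine genes and 5 of 9 chemokine genes tested were called higher, and 1 and 2 lower. Without CMP library A or B, 3 cytokine genes and 3 chemokine genes were called higher in each case and none lower, and 4 cytokine genes were called higher and 2 lower with either spleen Ter library left out.

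Among 12 genes of immune suppression tested, 6 were called higher and 1 lower, though none of them was called without CMP library A or without CMP library B. Cd274, which encodes the checkpoint ligand PD-L1, was 10.8 and 13.6 FPKM against 4.51 and 4.20 (1.29 ± 0.30, limma adjusted p = 0.0238). Pdcd1lg2, which encodes PD-L2, was 5.07 and 6.44 against 0.125 and 0.0906. Il10, an anti-inflammatory cytokine, was 3.59 and 7.45 against 0.0522 and 0.114. Arg1 and Arg2, the arginases, were 2.20 and 4.98, and 10.3 and 3.61, against values of 0.261 to 1.44 in CMP. Tgfb1, transforming growth factor β1, went the other way, with 6.45 and 10.6 against 58.3 and 51.4 (-2.59 ± 0.32, limma adjusted p = 0.00512).

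Immediate early genes, which respond fast to outside signals, split within families. Junb was 706 and 958 FPKM against 114 and 75.3, Jund was 104 and 119 against 27.7 and 22.8, and Nr4a1, a nuclear receptor, was 206 and 225 against 23.97 and 16.06, all 3 called higher. Jun was 88.8 and 74.2 against 311 and 183 and was called lower, with Fosb and Klf4. Of 13 tested, 5 were called higher and 3 lower, and no gene was called lower with median-of-ratios scaling or without CMP library A. In AP-1, the dimer of JUN and FOS proteins, the Jun genes thus differed in direction.

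The naming rule gave 15 genes per direction with the largest differences of means, among genes whose libraries did not overlap between the groups. The gap between libraries was thus set by the rule, and the calls of these genes are no separate support. Of the 15 higher in spleen Ter, all called, 9 are in the lists above, and the others included Gimap3, Gimap4, Ccr7, Cd83 and Fcmr. Among them were Gimap4, a GTPase of lymphocytes (104 and 200 FPKM against 0.632 and 0.0406), Ccr7, the receptor that guides naive lymphocytes (181 and 118 against 0.656 and 0.113), and Cd83, a surface protein of activated B and dendritic cells (147 and 121 against 0.669 and 0.209). Of the 15 lower, all called, 9 were in no list described above. Rab44, a GTPase of granulated cells, was 3.05 and 0.402 against 146 and 174 (-6.08 ± 0.54, limma adjusted p = 0.00345). Adgrg1, an adhesion receptor of stem and progenitor cells also called GPR56, was 0.916 and 0.989 against 57.1 and 51.6. Ass1, argininosuccinate synthase, was 1.15 and 2.53 against 82.2 and 96.3. Npm3, a relative of nucleophosmin, was 1.95 and 2.14 against 74.9 and 85.0. Hyou1, a chaperone of the endoplasmic reticulum, was 1.61 and 0.580 against 58.8 and 36.0. As the rule required, the libraries of the 2 groups did not overlap in these 5 genes. The other 4 were Tpm3-rs7, Chdh, Prrc2a and Emilin1, with log2 differences of means from -5.51 to -4.61. Among genes without recovered libraries, the largest higher means after the globins belonged to Cd74, and the lower ones included Eif4g1, a translation initiation scaffold (means 9.50 and 92.2), and Hnrnpa1, an RNA-binding protein (65.2 and 526), beside the 3 granule genes.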

How the data were processed

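RNA was measured in 2 spleen Ter and 2 CMP samples, with libraries made from total RNA with a TruSeq kit, per the labels' protocols. The authors deposited 1 table of FPKM values, the mean of each group's 2 samples, on mm10 per the submitters' processing notes. No label names the aligner, counter or annotation, and the unit was read from the values. Of 49583 genes, 49324 matched GENCODE M21 by ID. Each mean is the average of 2 whole fragment counts over the gene's length and 2 depths, so both libraries were recovered from its 10 digits for 99.0% of the 13357 genes (2435 with a length found by search). This assumes that the table was made that way. The test was limma's (version 3.58.1, R 4.3.3, lmFit and eBayes with trend) on log2(FPKM + 1) of these 4 libraries, for genes with at least 1 FPKM in 2 libraries, with 2 residual and 3.19 prior degrees of freedom. Both steps were tested on simulated data. There, recovery succeeded for 99.5% of entries, with 0 wrong. The limma step called 0% of 2-fold, 16% of 4-fold, 68% of 8-fold and 88% of 16-fold differences. Of its 92 calls, 6 were of unchanged genes. A gene that did not pass may therefore still differ between the groups. Fold changes on this scale understate those of low genes. Named genes were the members of 38 lists (493 genes, 5 without a value, not analysed here, and a few more not reported here) and, by rule, the 15 largest differences of means per direction whose higher group had both libraries at 5 FPKM or more and did not overlap the other, and 5 per direction among genes not recovered. Members, lists and tests were chosen with earlier results of these data known. Alternatives were 8 libraries in the fit, another pseudocount, other filters, 3 other scalings and leaving out each library. Floors for a level of 0 take 3 fragments and cover counting error only.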

Additional observations from a re-analysis of the deposited data

How the results depend on the processing

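No paired analysis was possible because the recovered libraries carry no replicate number. Of the genes higher in spleen Ter, 1603 in the fit reported, 960 were called with a filter of 5 FPKM and 587 with no filter; of the 3184 lower, 1061 were called with no filter, which tests 27680 genes. Leaving out 1 library gave 429 to 2021 genes higher and 814 to 4639 lower, with the fewest calls when a CMP library was left out, a fit in which the lone CMP library is assumed to vary like the spleen Ter pair. By the deposited means, 1417 genes were at least 2-fold higher among those with a mean of at least 5 FPKM, against 2502 at 1 FPKM. The 8-library fit, another pseudocount and the 3 other scalings moved neither count of calls by over 1.5 times, and the scalings moved the split between higher and lower as given above. Of 407 named genes tested, 253 were called; median-of-ratios scaling lost 29 of these calls and reversed 0, and leaving out CMP library A or B lost 141 and 144. Among genes that were not called, Cd163, Kel and Slc25a37 lay on opposite sides of CMP in the 2 spleen Ter libraries. Their log2 differences without library A and without library B were 1.20 and -1.32 (Cd163), -1.79 and 1.88 (Kel), and -1.21 and 1.28 (Slc25a37). The cause was not tested. Depth limits the genes with few fragments, and 3 fragments in a CMP library came to 0.0276 to 0.543 FPKM for listed genes at 0.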

Other observations

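Interferon-stimulated genes had means at least 2-fold higher in spleen Ter for 9 of 14 genes and 2-fold lower for 1 (median 1.99), with 4 of 13 tested called higher. Rsad2, the antiviral viperin, was 132 and 16.6 FPKM in spleen Ter libraries A and B and 1.63 and 0.3445 in CMP (4.69 ± 0.99, limma adjusted p = 0.0181). Isg15, a ubiquitin-like modifier, was 104 and 25.3 against 9.58 and 3.35. Ifit3, with 4.135 and 45.03 against 1.06 and 0.171, did not pass. Spleen Ter library B exceeded A at least 2-fold for 8 of the 14 genes, Ifit3 among them. The opposite gap of that size was seen for 2, Rsad2 and Isg15. Mx1, an antiviral GTPase, had a lower mean in spleen Ter (1.54 against 4.69 FPKM). After median-of-ratios scaling or quantile normalization 9 of the 13 were called higher. With no filter none was called, without spleen Ter library A 6 were called higher, without library B 2 were called higher and 2 lower, and without CMP library A or B 1 and 0 were called higher.

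Survival genes of the BCL2 family had 3 of 12 called higher and 2 lower. The 3 were copies of Bcl2a1, an inhibitor of cell death: Bcl2a1d was 34.6 and 26.3 FPKM in spleen Ter against 0.2375 and 0.1728 (4.69 ± 0.32, limma adjusted p = 0.0026), and reads may be shared among the copies. Bak1, which opens the outer mitochondrial membrane, was 1.07 and 1.74 against 35.57 and 35.65 (-3.94 ± 0.31, limma adjusted p = 0.00318), while its partner Bax was 32.3 and 35.2 against 19.38 and 19.96 and did not pass. Bcl2l1, counted with the erythropoietin genes and known for keeping red cell precursors alive as BCL-XL, was 19.7 and 8.02 against 3.05 and 2.49 (1.86 ± 0.48, limma adjusted p = 0.0306). The family had 1 call in each direction without CMP library A or without B. With median-of-ratios scaling, or without spleen Ter library A, 8 were called higher and 1 lower.

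Genes of the erythropoietin signal and of hypoxia went both ways. Epor, the erythropoietin receptor, was 3.69 and 2.87 FPKM in spleen Ter and 2.58 and 1.61 in CMP and did not pass. Stat5a and Stat5b, which carry its signal, were both called lower, with log2 differences of -1.46 ± 0.30 and -1.38 ± 0.39 (limma adjusted p = 0.0169 and 0.0409). Socs3, a feedback inhibitor of cytokine signals, was 24.6 and 60.6 against 3.33 and 1.73 and was called higher. With either CMP library left out, 1 of the 8 genes of this signal tested was called higher and 0 lower. Of 9 hypoxia genes tested, 4 were called lower, among them Egln3, an oxygen-sensing hydroxylase (1.02 and 1.99 against 13.1 and 12.3), and 2 higher, Ankrd37 and Slc2a1, which encodes the glucose transporter GLUT1. Without CMP library A or B, 1 hypoxia gene was called lower and 0 higher.

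The 2 CMP libraries differed from each other in several lists. CMP library A was at least 2-fold above library B in all 7 recovered late granule genes, 5 of 9 plasma cell genes, 4 of 12 mature neutrophil genes and 4 of 19 B cell genes, against 1.28% of all genes recovered, and library B was 2-fold above A in none of those lists. In both libraries the Cd34, Kit and Mcm5 levels were close.

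In the remaining lists few genes were tested. Of 10 stem cell genes 3 were tested and 2 called higher, Ly6a and Slamf1, the latter a SLAM receptor that lymphocytes and macrophages also carry (1.688 and 3.295 against 0.2997 and 0.2059 FPKM). Of 7 lymphoid progenitor genes 3 were tested, with 1 called in each direction. Of 7 dendritic cell genes tested 1 was called lower, the factor Irf8 (27.97 and 57.09 against 93.68 and 102), and none higher. Of 12 stroma, endothelium and epithelium genes 3 were tested, with 1 called higher and 2 lower, among them Pecam1, the adhesion molecule CD31 (5.367 and 10.52 against 22.36 and 21.69). Collagen gene Col1a1 was at or under 0.07287 FPKM in each of the 4 libraries. With a CMP library left out none of the dendritic and stroma genes was called. Of 11 sort antigen genes tested 4 were called higher (among them Ly6a, Il7r and Cd3e) and 2 lower (Kit and Cd34).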
